A study of Mus musculus with 3 samples.

Results

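The sphingosine-1-phosphate (S1P) genes were 10 genes for the receptors of this lipid and for the proteins that make, export and break it down, measured in endothelial cells of the adult mouse renal medulla. The genes were taken by name: S1pr1 to S1pr5, the kinases Sphk1 and Sphk2, the exporter Spns2, the lyase Sgpl1 and the phosphatase Sgpp1. All 10 were found, each with 1 probe set that named a single gene and none in a probe set naming several, among 19938 genes represented on the array. The series held 1 group of 3 arrays, and for each array 2 kidneys of adult male FVB/N mice were pooled. All carried the transgene Tg(TIE2GFP)287Sato, in which the Tie2 promoter drives green fluorescent protein. This promoter is known to be active in endothelium and also in some blood-forming cells, so the sort by fluorescence does not by itself define an endothelial cell. The medulla was digested with collagenase before sorting, the RNA went through 1 round of amplification, and whole-transcript Affymetrix mouse arrays were hybridised. No second group was analysed here, so the values are levels and not changes.

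S1P is a signaling lipid of blood and lymph. Sphingosine, released from ceramide, is phosphorylated by a sphingosine kinase, and the product either leaves the cell through an exporter to act on G protein-coupled receptors or is removed inside the cell by dephosphorylation or cleavage. In vessels S1P is best known for tightening endothelial junctions and restraining sprouting through S1PR1, and for guiding lymphocytes out of lymphoid organs.

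Each level was set against a pair of limits. The filter of the study asks for a raw level of 100 units. Taken as a level on the scale of the files, with log base 2, this would be 6.64, but both the base and the match of the scales were inferred from the range of the values. The second was an approximate background limit, the 95th percentile over 1247 probe sets, by mean level, for olfactory, vomeronasal and bitter taste receptors, at a log2 level of 7.95 (247 units). A gene under it is not shown to be silent. Probes differ in affinity, so levels of different genes were not ranked. In RNA of a sorted population, fewer cells that use a gene and less RNA per cell cannot be told apart.

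The 3 arrays correlated at 0.964 to 0.966 over all probe sets, and their medians differed by at most 0.03. The same value in every array was listed for 46.3% of genes, and 24.0% had 3 different values. An SD of 0 is therefore common in these files and does not show that a level was measured without error. Of 10 endothelial markers all were called above the background limit, against 52.5% of all genes. Pecam1 was at 12.44 ± 0.08, Cdh5 at 12.71 ± 0.18, Tek at 12.80 ± 0.19 and Kdr at 12.17 ± 0.21 (log2 level, SD, n = 3). Tek is the gene of Tie2, whose promoter drove the sorted fluorescence, so its level is no independent check of the cells.

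Of the S1P genes, 8 of 10 lay above the background limit by limma with Benjamini-Hochberg adjustment over all genes, against 52.5% of all genes. The count depends on the limit. At the 99th percentile of the sensory receptors (log2 8.72) only S1pr1 and Sphk2, 2 of 10, were called above, against 6007 of 19938 genes. S1pr3 was the 1 member called below it, where 41.4% of all genes were, and Sphk1 could not be told from it, like 6.03% of all genes. All 3 arrays reached the background limit in 8 S1P genes, against 54.9% of all genes. At 100 units all 10 were called above, against 84.5% of all genes, and all 10 reached it in every array, against 85.4%. The median log2 level was 8.61 over the S1P genes and 8.15 over all genes. These are counts of a short list chosen by name, and no test of the list as a whole was made.

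**Figure D1:**
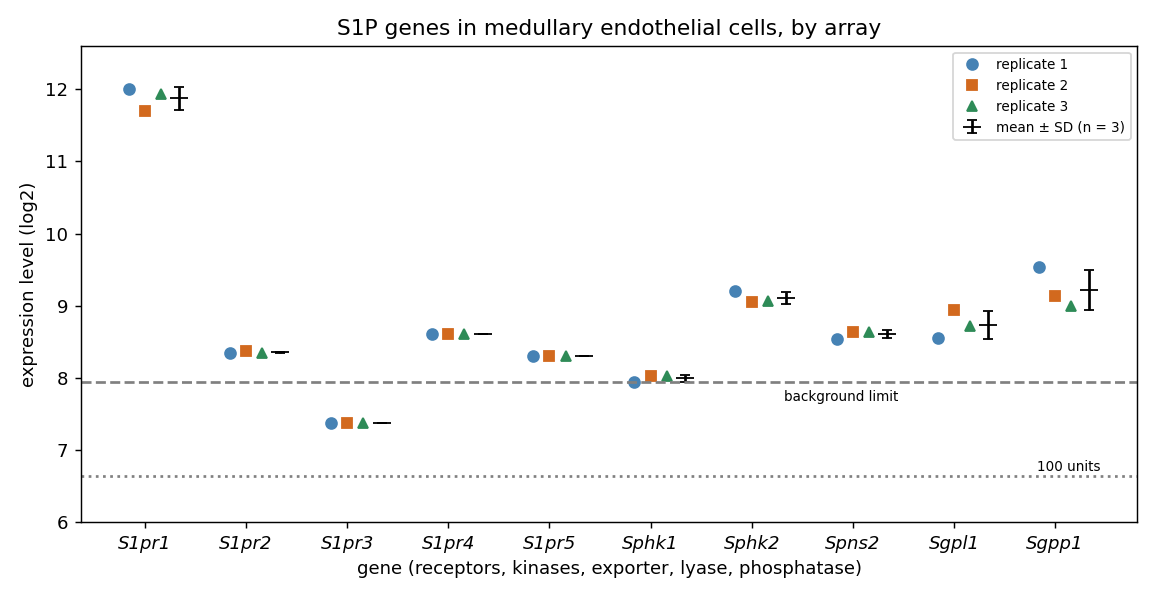
Expression level (y axis, log2) of the 10 S1P genes (x axis) in each of 3 arrays, with the mean and SD over the arrays at the right of each gene. The dotted line marks 100 units (6.64) and the dashed line the background limit (7.95). S1pr3 lies between the lines, Sphk1 lies at the dashed line, and the other 8 genes lie above it in every array.

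Among the receptors, S1pr1 stood far above the background limit, S1pr2, S1pr4 and S1pr5 stood just above it, and S1pr3 stood below it. S1PR1 couples to inhibitory G proteins and, through Rac, strengthens the endothelial barrier. Its log2 level was 12.00, 11.70 and 11.93 in replicates 1, 2 and 3. The mean was 11.87 ± 0.16 (SD, n = 3), or 3755 units, and the highest array was 1.23 times the lowest. The level exceeded the background limit by 3.93 ± 0.09 log2 units (SE, adjusted p = 0.00034, limma), and none of the sensory receptor probe sets was as high. Replicate 2 was the low array for S1pr1. Summed in units, the 10 endothelial markers came to a log2 of 15.73, 15.54 and 15.58 in replicates 1, 2 and 3. The highest probe sets weigh most in such a sum. Replicate 1 was the highest array for 8 of the markers, as it was for S1pr1. Replicate 2 was the lowest array for 4 of the markers and replicate 3 for another 4. The part of endothelial purity in the S1pr1 level was not tested.

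S1PR2, which couples to G proteins of the G12/13 group, was measured at 8.35, 8.37 and 8.35. The mean of S1pr2 was 8.35 ± 0.01 (SD, n = 3), or 327 units, and it exceeded the background limit by 0.41 log2 units (adjusted p = 0.000145, limma). S1PR3 couples to several G protein classes and is known from endothelium and smooth muscle. S1pr3 was listed at 7.38 (166 units) in all 3 arrays, past 100 units but 0.57 log2 units under the background limit, and 14.8% of the sensory receptor probe sets were at least as high.

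The remaining pair of receptors is best known from blood cells, S1PR4 from lymphoid and myeloid cells and S1PR5 from natural killer cells, as well as from oligodendrocytes and brain endothelium. S1pr4 was listed at 8.61 (390 units) and S1pr5 at 8.30 (315 units) in every array, which is 0.66 and 0.35 log2 units above the background limit. Of the sensory receptor probe sets, 1.36% reached the level of S1pr4, 2.33% that of S1pr5 and 2.17% that of S1pr2. These receptors thus stand in the upper tail of the background rather than clear of it. Because 3 of these genes had no spread at all, their error in the fit rests on the prior variance. With that prior taken from genes with 3 different values, the adjusted p against the background limit was 0.00352 for S1pr2, 0.00073 for S1pr4, 0.00555 for S1pr5 and 0.00116, below the limit, for S1pr3 (limma).

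**Figure D2:**
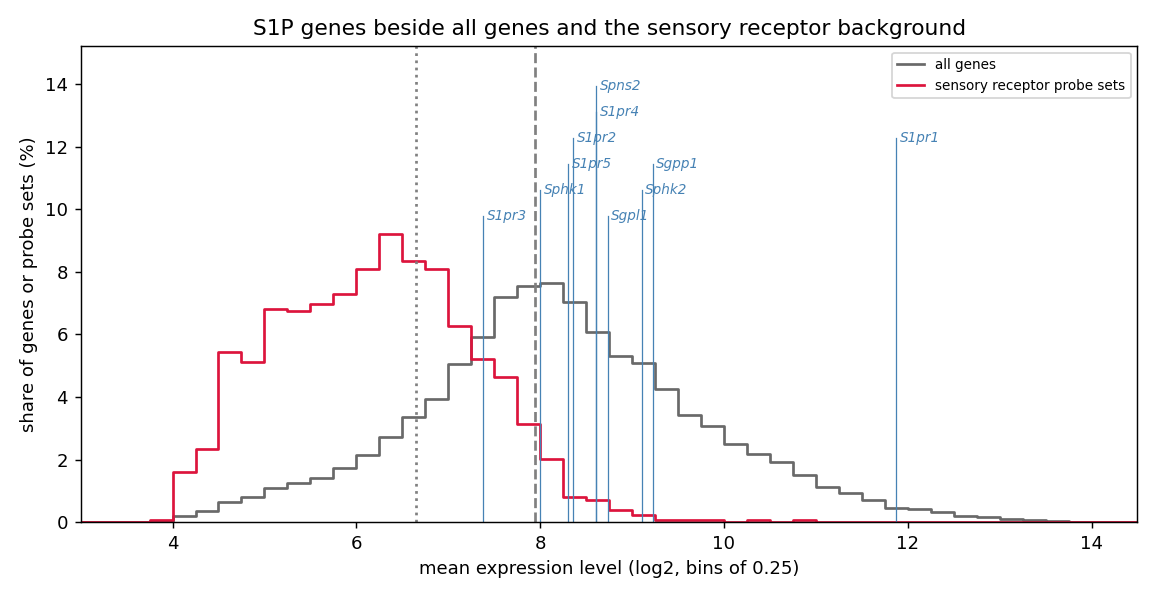
Share (y axis, %) of all genes (grey) and of sensory receptor probe sets (red) by mean log2 level (x axis, bins of 0.25), with a blue line at the mean of each S1P gene, and the 100 unit (dotted) and background (dashed) limits. S1pr1 at 11.87 lies beyond the sensory receptor distribution, while S1pr3 at 7.38 lies inside it.

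Markers of the blood and mural cells in which these receptors are also known were on both sides of the background limit. Of 9 lymphocyte markers 8 were called below it, against 41.4% of all genes, among them Ptprc (6.68), Cd79a (5.96) and Cd3g (6.59), and Cd3e (8.52) was called above. The log2 of their summed units was 10.32 in each array, and no marker is at 0 on this scale. Of 7 myeloid markers 5 were called below, against 41.4% of all genes, and Cx3cr1 (8.66) and Cd68 (7.99) were called above. Those below included Csf1r at 7.54, Adgre1 at 6.18, Lyz2 at 7.35 ± 0.25 and C1qa at 7.91. The log2 of the summed units of the 7 was 10.47 to 10.52. Of 8 smooth muscle and pericyte markers 4 were called below, against 41.4% of all genes, and 2 above, against 52.5%. Acta2 was at 7.56, Myh11 at 7.98 ± 0.05, Pdgfrb at 7.56 and Rgs5 at 7.72 ± 0.19 (log2 of summed units 10.87 to 10.90). What part such cells had in the levels of S1pr2, S1pr4 and S1pr5 was not tested.

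The start regions of S1pr2 to S1pr5 are shown because these are the receptors whose levels lay nearest the background limit, and because they differ in CG content. The windows run from 250 bases before to 50 bases after the RefSeq start of each gene (assembly GRCm38.p6, matched by symbol for 9 of the 10 genes, S1pr1 excepted), printed 5′ to 3′ on the strand of the gene, with each CG dinucleotide in capitals.
S1pr2 (chr9:20976744-20977043, minus strand): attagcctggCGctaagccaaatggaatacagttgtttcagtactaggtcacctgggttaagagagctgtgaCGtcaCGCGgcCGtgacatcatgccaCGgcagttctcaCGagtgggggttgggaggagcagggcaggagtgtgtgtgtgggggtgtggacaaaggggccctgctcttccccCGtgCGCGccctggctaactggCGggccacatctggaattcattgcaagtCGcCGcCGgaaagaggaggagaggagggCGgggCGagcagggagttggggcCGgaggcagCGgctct
S1pr3 (chr13:51408368-51408667, plus strand): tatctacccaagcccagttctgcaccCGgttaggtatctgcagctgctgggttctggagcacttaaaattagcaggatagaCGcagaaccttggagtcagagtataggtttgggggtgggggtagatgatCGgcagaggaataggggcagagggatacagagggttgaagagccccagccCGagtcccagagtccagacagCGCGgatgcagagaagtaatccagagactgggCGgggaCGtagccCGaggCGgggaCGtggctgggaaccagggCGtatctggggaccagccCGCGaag
S1pr4 (chr10:81500088-81500387, minus strand): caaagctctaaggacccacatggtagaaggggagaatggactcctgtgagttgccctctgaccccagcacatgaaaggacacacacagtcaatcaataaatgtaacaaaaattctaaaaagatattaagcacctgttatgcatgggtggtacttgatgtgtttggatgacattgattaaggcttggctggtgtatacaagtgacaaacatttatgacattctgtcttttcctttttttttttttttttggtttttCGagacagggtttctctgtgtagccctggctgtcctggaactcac
S1pr5 (chr9:21248394-21248693, minus strand): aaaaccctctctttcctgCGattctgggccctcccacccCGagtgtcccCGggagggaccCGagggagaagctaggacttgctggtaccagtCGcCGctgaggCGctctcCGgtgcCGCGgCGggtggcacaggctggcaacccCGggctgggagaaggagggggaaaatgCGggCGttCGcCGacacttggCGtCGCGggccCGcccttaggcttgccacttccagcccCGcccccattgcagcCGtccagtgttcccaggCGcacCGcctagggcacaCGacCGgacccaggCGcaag

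The S1pr4 window held 1 CG dinucleotide, against 18 in that of S1pr2, 14 in that of S1pr3 and 27 in that of S1pr5. The ratio of CG observed to that given by the C and G content was 0.08 for S1pr4, 0.67 for S1pr2, 0.57 for S1pr3 and 0.75 for S1pr5. Over 32851 such windows the median ratio was 0.38, at least 1 CG was found in 94.6%, and 10.5% were at or below the ratio of S1pr4. Among the enzymes whose window begins at the outer end of the gene, the ratio was 1.01 for Sphk2, 0.89 for Sgpl1 and 1.10 for Sgpp1. The Spns2 window, set at an inner start, held 2 CG dinucleotides at a ratio of 0.11, close to S1pr4. Sphk1 had several inner windows, with ratios from 0.26 to 0.85. A link between CG content and level was not tested, for S1pr3 and S1pr4 or for the other genes. The files hold no measure of methylation or binding, so the windows are descriptions only.

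Of the pair of sphingosine kinases, Sphk2 was above the background limit and Sphk1 was at it. SPHK1 works mainly in the cytoplasm and at the plasma membrane, and SPHK2 is found also in the nucleus and at internal membranes. Sphk2 was measured at 9.20, 9.05 and 9.06 in replicates 1, 2 and 3, with a mean of 9.10 ± 0.08 (SD, n = 3), or 550 units. It exceeded the background limit by 1.16 ± 0.05 log2 units (SE, adjusted p = 0.00115, limma), and 0.401% of the sensory receptor probe sets were as high. Sphk1 was measured at 7.94, 8.03 and 8.03, with a mean of 8.00 ± 0.05 (SD, n = 3). Replicate 1 fell just under the limit and the others just over it. The difference of 0.05 ± 0.03 log2 units was not called (SE, adjusted p = 0.178, limma), and without replicate 1 it was 0.08, which was called, both values being equal.

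The exporter and the removing enzymes were called above the background limit, but none of them was called above the 99th percentile of the sensory receptors. SPNS2 carries S1P out of endothelial cells. Spns2 was measured at 8.54, 8.64 and 8.64, with a mean of 8.61 ± 0.05 (SD, n = 3), or 390 units, 0.66 ± 0.03 log2 units above the limit (SE, adjusted p = 0.00147, limma). Of the sensory receptor probe sets 1.36% reached Spns2, the same share as for S1pr4, and its log2 level minus their 99th percentile was -0.11 (adjusted p = 0.0579, limma). In Spns2, as in Sphk1, replicate 1 was the low array and the other values were equal.

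SGPL1, the S1P lyase of the endoplasmic reticulum, cleaves S1P irreversibly. Sgpl1 was measured at 8.55, 8.94 and 8.71 in replicates 1, 2 and 3, with a mean of 8.74 ± 0.20 (SD, n = 3), or 426 units. It lay 0.79 ± 0.11 log2 units above the background limit (SE, adjusted p = 0.0146, limma). SGPP1 returns S1P to sphingosine at the same membrane. Sgpp1 was measured at 9.53, 9.14 and 9.00, with a mean of 9.22 ± 0.28 (SD, n = 3), or 598 units, and lay 1.28 ± 0.15 log2 units above the limit (SE, adjusted p = 0.0107, limma). All arrays of both genes were above the limit. Against the 99th percentile of the sensory receptors, Sgpl1 differed by 0.02 log2 units (adjusted p = 0.896, limma) and Sgpp1 by 0.51 (adjusted p = 0.0712), and 1.04% and 0.401% of those probe sets were at least as high. With 2 arrays, however, Sgpl1 was not called in any of the 3 pairs (0.69 to 0.88 log2 units above, adjusted p = 0.076 to 0.149), and Sgpp1 was not called without replicate 2 (1.33, adjusted p = 0.124) or without replicate 3 (1.39, adjusted p = 0.0892). Against 100 units Sgpp1 was not called without replicate 2 (2.62, adjusted p = 0.0598), nor Sgpl1 without replicate 3 (2.10, adjusted p = 0.0553).

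Sgpp1 and Sgpl1 varied most between arrays among the 10 genes, and in different arrays. The highest array was 1.45 times the lowest for Sgpp1 and 1.31 times for Sgpl1. The median SD was 0.05 over the S1P genes, 0.0079 over all genes and 0.16 over the 4781 genes with 3 different values. Replicate 1 was highest for S1pr1, Sphk2 and Sgpp1 and lowest for Sphk1, Spns2 and Sgpl1. Of 4 markers of the thick ascending limb, a tubule segment of the medulla, Umod and Slc12a1 were highest in replicate 1 and the others were not. The log2 of the summed units of the 4 was 12.15, 11.13 and 10.61 in replicates 1, 2 and 3. Umod was at 11.61, 10.40 and 9.49 and Slc12a1 at 9.68, 8.07 and 7.81. Kcnj1 was listed at 8.84 in every array and Cldn16 was lowest in replicate 1, at 7.07, 7.34 and 7.34. Sgpp1 had the same order of arrays as Umod and Slc12a1, and as the endothelial markers Cdh5, Kdr, Eng and Esam. The other endothelial markers did not have this order. The podocyte marker Podxl and the collecting duct marker Atp6v1g3 had it too. The part of tubule RNA in the Sgpp1 level was not tested. Of the other marker lists, 2 of 4 genes of the collecting duct and 1 of 4 of the proximal tubule were called above the background limit. So were 1 of 4 of fibroblasts and 2 of 3 of podocytes, against 52.5% of all genes. The podocyte markers above it were Podxl (11.03 ± 0.28) and Wt1 (8.11 ± 0.02), and Nphs1 (7.69) was called below.

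**Figure D3:**
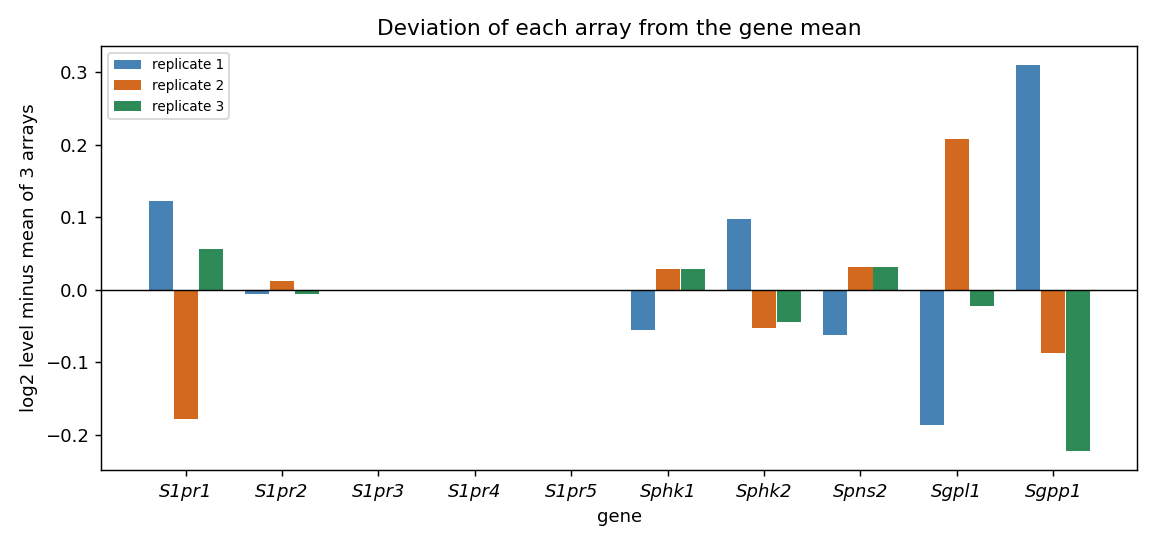
Deviation of each array from the mean of the 3 arrays (y axis, log2 units) for each S1P gene (x axis), 1 bar per replicate. S1pr3, S1pr4 and S1pr5 have no bars because their values were equal, and Sgpp1 and Sgpl1 deviate in opposite directions in replicate 1.

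The enzymes that build ceramide, from which sphingosine is released, were on both sides of the background limit, in shares near those of all genes. Sptlc1 (log2 9.59 ± 0.24, SD, n = 3) and Sptlc2 (11.57 in every array) encode the core of serine palmitoyltransferase, which takes the first step of the pathway. Kdsr, the reductase of the next step, was listed at 8.80 in every array, and the ceramide synthase Cers2 was at 9.95 ± 0.06. Of 16 measured genes 10 were called above the limit, against 52.5% of all genes, and 5 below, against 41.4%. Those below included the ceramide synthases Cers6 (7.21) and Cers3 (7.05), the desaturase Degs2 (7.71) and the third large transferase subunit Sptlc3 (6.95 ± 0.09).

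Of 15 genes that turn ceramide over, 11 were called above the background limit, against 52.5% of all genes, and 2 below, against 41.4%. Ceramidases, which free sphingosine for the kinases, were on both sides. The lysosomal Asah1 was measured at 10.55, 10.77 and 10.10, and the Golgi enzyme Acer2 at 12.39, 12.26 and 11.97. The neutral ceramidase Asah2 was at 10.20 ± 0.27. The alkaline ceramidase Acer3 was at 7.87 in replicate 1 and at 6.71 and 6.70 in replicates 2 and 3, and was not called against either limit. Acer1 (6.96 ± 0.07) and the neutral sphingomyelinase Smpd3 (7.67) were called below the background limit. Sphingomyelin synthase Sgms2 was at 8.22, 8.40 and 9.20 and was not called, although all its arrays were above the limit.

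Among 10 further genes that handle S1P, 7 were called above the background limit, against 52.5% of all genes, and 2 below, against 41.4%. The lipid phosphate phosphatases Plpp1 (12.56 ± 0.06, SD, n = 3) and Plpp3 (11.84 ± 0.14), enzymes of the cell surface that dephosphorylate S1P and related lipids, were called above, and Plpp2 (7.85 ± 0.06) was not called. Sgpp2, the second S1P phosphatase, was listed at 8.13 in every array. The apolipoprotein Apom, which carries S1P in plasma and is made mainly in liver and kidney tubule, was at 7.20, and Spns3, a relative of the exporter, was at 7.67 ± 0.07, both called below. Mfsd2b, the S1P exporter of red cells and platelets, named here after its values were seen, was at 8.21 ± 0.02. Of 7 red cell and platelet markers 4 were called above, near the share of all genes (log2 of summed units 10.69 to 10.74). These were Alas2 (8.15 ± 0.04), Itga2b (8.24 ± 0.01), Gp9 (8.23) and Epor (8.30). Slc4a1 (7.94), Pf4 (6.44 ± 0.10) and Ppbp (7.12 ± 0.28) were called below. The part of such cells in the Mfsd2b level was not tested.

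The G proteins and small GTPases through which the receptors act were above the background limit with few exceptions. The inhibitory subunit Gnai2 was measured at 12.26, 12.20 and 12.13, and Rac1, which follows it in the barrier response, at 11.89, 11.92 and 11.77. Gna13, the partner of S1PR2, was at 10.83 ± 0.01 (SD, n = 3), and Gnaq was listed at 10.58 in every array. Of 19 genes in this list 16 were called above the limit, against 52.5% of all genes, and 1 below, against 41.4%. Gnai1 (8.16 ± 0.10) and the arrestin Arrb2 (7.94 ± 0.04) were not called. Cd69, a lymphocyte protein that draws S1PR1 from the cell surface, was the gene called below, at 6.08 in every array. Klf2, a shear-responsive factor known to raise S1pr1 in lymphocytes, named here after its values were seen, was at 9.36 ± 0.10.

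**Figure D4:**
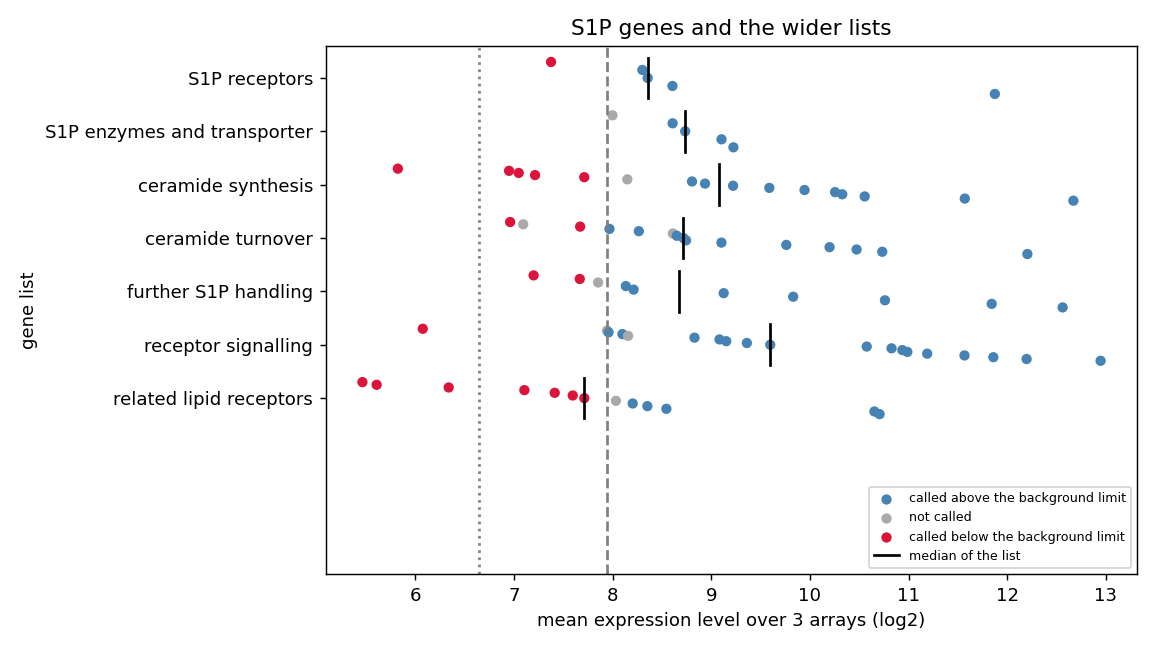
Mean log2 level over 3 arrays (x axis) of each gene in the S1P groups and in the wider lists (y axis), coloured by its call against the background limit, with the median of each list as a black line and the 100 unit (dotted) and background (dashed) limits. The S1P receptors have their median at 8.35, the receptor signaling list at 9.60 and the related lipid receptors, under the limit, at 7.71.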

How the data were processed

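RNA of sorted medullary endothelial cells was measured on 3 one-colour arrays of 1 group, which served as replicates. The values the authors deposited are log2 levels, 1 per probe set. The submitters' processing notes name Affymetrix Expression Console, and the text of the study names RMA normalization and GeneSpring GX. For settings and scan dates nothing is stated in the sources. The log2 base was taken from the range of the values (3.55 to 14.4). The sources do not say which arrays shared a normalization. RMA summarises probe sets by median polish, and equal values across arrays are frequent, so the SD of such genes understates error. Of 35557 probe sets 21789 named 1 gene, 1621 several and 12147 none. Of those naming 1 gene, 21698 were matched by Entrez identifier to RefSeq (GRCm38.p6) and took its symbol. Where several probe sets named only the same gene, that with the highest mean was taken. limma 3.58.1 in R 4.3.3 (intercept only, eBayes) tested the log2 level minus each limit, 2-sided. Benjamini-Hochberg adjustment was over 19938 genes, with a threshold of 0.05. The fit was also run on simulated data, but no outcome of that run is given here. It is therefore no check of the p-values of genes with equal values across arrays, which were 46.3% of all genes. Python 3.11.15, numpy 2.4.6, pandas 2.3.3 and matplotlib 3.10.9 were used. The study describes its samples as independent, each a pool of 2 kidneys, and the number of arrays limits the precision.

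All 10 S1P genes were named. Of each wider list the first 4 measured genes and up to 4 on the other side of the background limit from most of the list were named, and of each marker list up to the first 4. Further markers of the endothelial, myeloid, and red cell and platelet lists were named after their values were seen. The genes, lists, limits and tests were chosen with earlier results of these data known. Genes with a similar pattern were not searched for, because 3 arrays of 1 group give no pattern. Alternatives changed the limits, the normalization, the probe set rule, the eBayes prior and the filter, and left out each replicate.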

Additional observations from a re-analysis of the deposited data

How the results depend on the processing

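The counts of S1P genes called were within 1.5 times under every alternative except 1. With the background limit at the 99th percentile of the sensory receptors (log2 8.72), limma called 2 of 10 S1P genes above it. Of all 19938 genes, 6007 were called, against 10474 at the 95th percentile, where 8 S1P genes were. The log2 level minus the 99th percentile was -0.36 for S1pr2, -0.11 for S1pr4, -0.42 for S1pr5 and -0.72 for Sphk1. These genes and S1pr3 were called below that limit. Spns2 (-0.11), Sgpl1 (0.02) and Sgpp1 (0.51) were no longer called against it. S1pr1 and Sphk2 were called above it. At the 90th percentile (7.61) 9 S1P genes were called, against 12640 of 19938 genes. With 200 units in place of 100, S1pr3 lay on the other side (-0.27) and 9 S1P genes were called, against 12425 of 19938 genes. Leaving out 1 array gave 6 to 8 S1P genes above the background limit and 9 to 10 above 100 units, with 8535 to 8731 and 15484 to 15703 genes in all, and 38 to 40 genes of the wider lists, against 49. With 2 arrays the error has few degrees of freedom. Normalization, the prior and the filter changed no call of an S1P gene. Each S1P gene had 1 probe set, so the probe set rule could not change its level. Of 200 values of single S1P genes under the other alternatives, 183 kept their direction and call. No paired analysis was possible because the series has 1 group. Signal against background is known only through the sensory receptor probe sets, which at the 99th percentile do not separate S1pr2, S1pr4, S1pr5, Sphk1, Spns2, Sgpl1 and Sgpp1 from the upper tail of that set. Among these Sgpp1 lay above that percentile by 0.51 log2 units, with an SD of 0.28. Sphk2, which was called, lay above it by 0.38 with an SD of 0.08, so the 2 differ in spread and not in a higher level of Sphk2.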

Other observations

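Receptors for related lipids were called above the background limit in 5 of 13 cases, against 52.5% of all genes. They were called below it in 7, against 41.4% (limma with Benjamini-Hochberg adjustment). Lysophosphatidic acid is a close relative of S1P, and its receptors fall into a group akin to the S1P receptors (Lpar1, Lpar2, Lpar3) and a group akin to purinergic receptors (Lpar4, Lpar6). Lpar4 was measured at 11.24, 10.44 and 10.44 in replicates 1, 2 and 3, and Lpar6 at 10.97, 10.76 and 10.23. Replicate 1 was the highest array for both, and every array was above the limit. In the other group Lpar1 (log2 8.35 ± 0.01, SD, n = 3) was called above the limit, and Lpar2 (7.71 ± 0.07) and Lpar3 (7.60) below it. The cannabinoid receptor Cnr2, best known from immune cells, was at 8.54 ± 0.05 and was called above.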
